A study of Anser cygnoides with 12 samples.

Results

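Messenger RNA levels of 9 genes of B lymphocytes and the germinal centre were read from ileum tissue of Yangzhou geese, a Chinese domestic breed, under 3 diets. The members were chosen by name: the germinal centre repressor BCL6, the B lineage factors PAX5, EBF1 and POU2AF1, the antigen receptor chain CD79B, the survival ligand TNFSF13B with its receptors TNFRSF13B and TNFRSF13C, and the antibody joining chain JCHAIN. All 9 names were found among the 19836 genes of the deposited table. Control geese ate a basal diet with 18% crude protein. The high protein geese ate 21% crude protein, and the lactulose geese ate 21% crude protein plus 0.3% lactulose, a sugar that passes undigested to the gut bacteria. Each diet had 4 libraries, named here by their replicate numbers in the labels: control 3, 4, 6 and 7, high protein 1, 3, 4 and 5, and lactulose 2, 3, 5 and 6. The age and sex of the birds were not stated. The labels do not say that the libraries of a diet came from different birds, so a p-value here reflects the spread between libraries, which may be technical.

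B cells carry a membrane antibody whose signal passes through a pair of CD79 chains. In mammals and chickens PAX5 and EBF1 set the B cell identity, and POU2AF1 is a coactivator of octamer-binding factors that B cells need to form germinal centres. Germinal centres are the sites where activated B cells divide and mutate their antibody genes under the control of BCL6. TNFSF13B, also called BAFF, is a secreted ligand that keeps B cells alive, with TNFRSF13C (the BAFF receptor) and TNFRSF13B (TACI) as its receptors. In mammals it is made by myeloid and stromal cells. Plasma cells of the gut wall add JCHAIN to polymeric immunoglobulin, which the epithelium then carries into the lumen.

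Total counts per library ranged from 38706155 to 48251825. Control 3 stood apart, with the lowest median correlation with the other libraries (0.938, against 0.957 to 0.963) and a TMM scaling factor of 0.806, against 0.912 to 1.15 elsewhere. Lactulose 3 and 5 differed far less than the 17 other pairs of libraries within a diet. Their squared difference per count was 7.10, against 27.2 to 204. If a read pair stands for about 4 counts, the noise of single read pairs is about 4. If it stands for fewer counts, that noise is lower, and which holds was not tested. Lactulose 3 and 5 were kept as separate libraries, as the labels give them. The tissue label was checked on 13 enterocyte markers, all of which were detected in every library. FABP6, the ileal bile acid binding protein, stood at 621 to 3490.5 FPKM, and the ileal bile acid transporter SLC10A2 at 6.84 to 146 FPKM. FPKM is the count scaled to transcript length and library total, so it allows levels of different genes to be compared.

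IL21, the helper T cell cytokine of germinal centres, was at 0 in 4 libraries and reached 0.370 FPKM. Of 10 B cell markers, 6 were found under their names: BLNK, BTK and the members CD79B, PAX5, TNFRSF13C and POU2AF1. The markers that were not found are not analysed here.

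The 9 genes spanned a wide range of levels. In bulk tissue, fewer cells of a type and less RNA per cell cannot be told apart. JCHAIN was the most abundant, with a mean of 176 ± 52.8 FPKM (SD, n = 12), higher than 98.5% of all expressed genes. BCL6 followed at 11.9 ± 2.61 FPKM and TNFSF13B at 4.92 ± 1.30 FPKM, and these first 3 did not overlap in any library. CD79B stood at 2.68 ± 1.11 FPKM, below TNFSF13B in 11 of 12 libraries. POU2AF1 came next at 1.32 ± 0.717 FPKM, below CD79B in 12 of 12. POU2AF1, EBF1 (1.06 ± 0.275 FPKM) and TNFRSF13B (0.983 ± 0.368 FPKM) did not differ beyond their spread: POU2AF1 exceeded EBF1 in 7 of 12 libraries, and EBF1 exceeded TNFRSF13B in 9. PAX5 and TNFRSF13C were the lowest, at 0.349 ± 0.441 and 0.114 ± 0.0707 FPKM, with PAX5 above TNFRSF13C in 8 of 12. For these 2 genes the counts were small, 0 to 308 for PAX5 and 4 to 71 for TNFRSF13C.

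**Figure D1:**
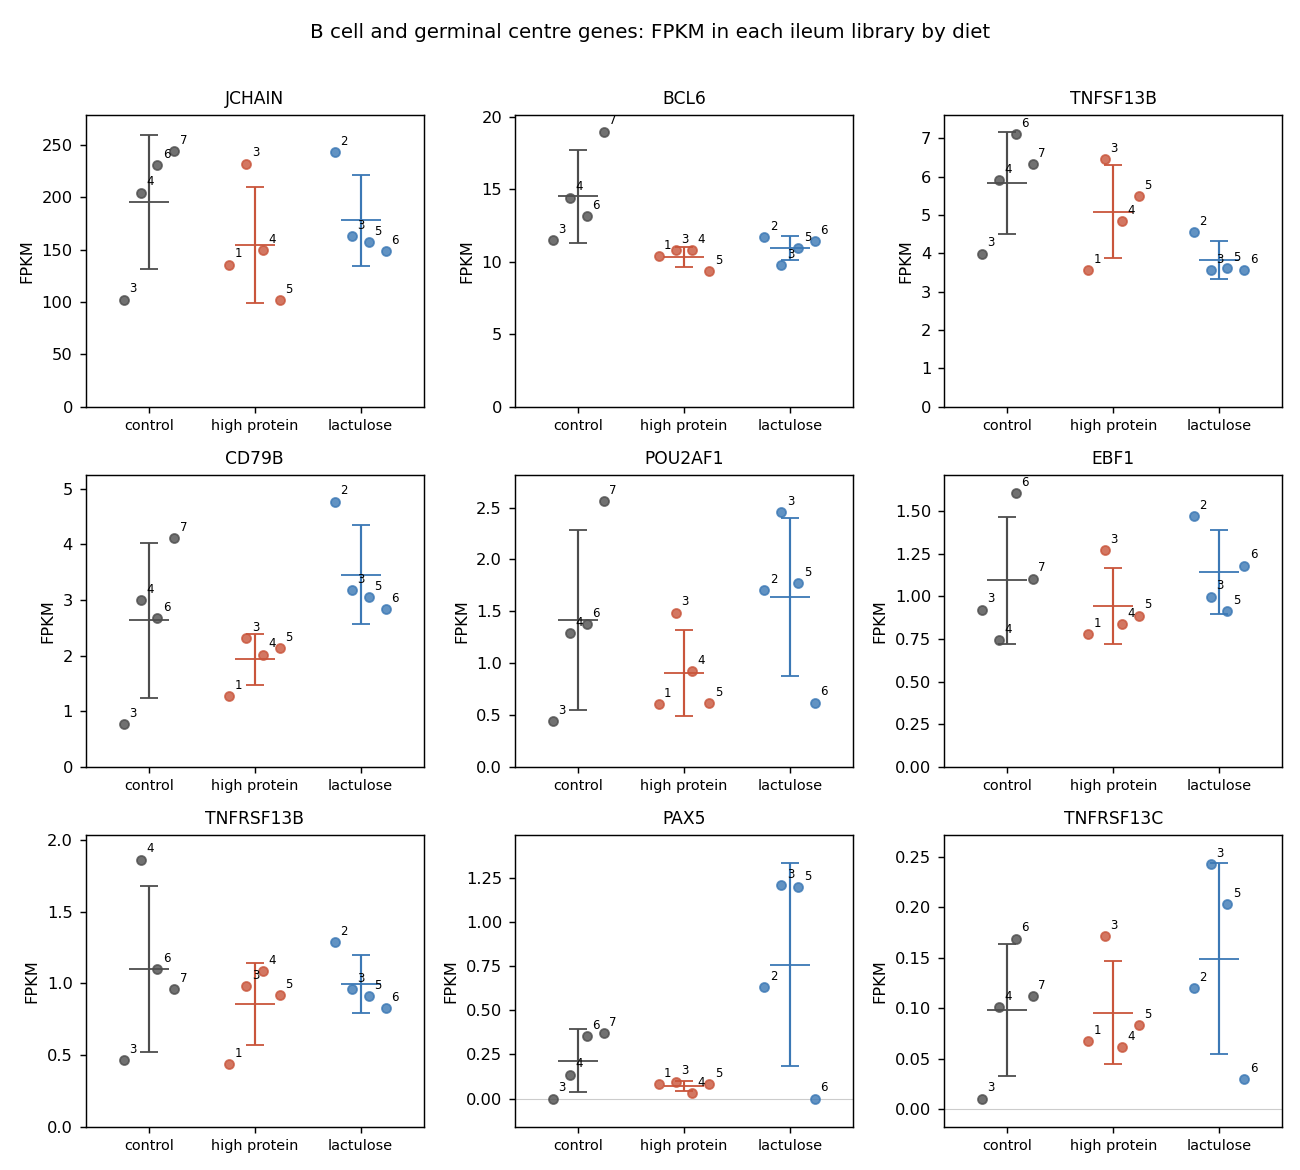
FPKM of each gene (vertical axis, own scale including 0 for each panel) in the 4 libraries of each diet. Points are libraries with their replicate number, the horizontal bar is the mean and the whisker the SD; PAX5 is at 0 in control 3 and lactulose 6 and near 1.2 in lactulose 3 and 5, and BCL6 is higher in all 4 controls than in any high protein library.

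Among the transcription factors, PAX5 differed most between libraries. PAX5 (ID 106048867, scaffold NW_025927991.1, 371262 to 507999, plus strand) stood at 0, 0.136, 0.353 and 0.370 FPKM in control 3, 4, 6 and 7. It stood at 0.0822, 0.0959, 0.0319 and 0.0835 FPKM in high protein 1, 3, 4 and 5. In lactulose 2, 3, 5 and 6 it stood at 0.632, 1.21, 1.197 and 0 FPKM. The values of lactulose 2, 3 and 5 lay above every other library, while lactulose 6 and control 3 had 0 counts. With 3 counts as the limit that a count of 0 allows, PAX5 could stand, in CPM (counts scaled to the library total), at up to 0.0622 in control 3 and 0.0728 in lactulose 6. These limits cover counting error only and take each count as 1 read pair. If a read pair stands for about 4 counts, as the small counts of the table allow, they are about 4 times as high. The 3 diets overlapped.

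POU2AF1 (ID 106039758, scaffold NW_025927688.1, 5314583 to 5342611, minus strand) had a similar order of libraries. Its level was 0.438, 1.29, 1.37 and 2.56 FPKM in control 3, 4, 6 and 7, and 0.6003, 1.49, 0.921 and 0.617 FPKM in high protein 1, 3, 4 and 5. In lactulose 2, 3, 5 and 6 it was 1.70, 2.46, 1.77 and 0.619 FPKM. Control 3 was again lowest, lactulose 6 was the low library of its diet, and the diets overlapped.

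EBF1 (ID 106032864, scaffold NW_025927788.1, 128965 to 402934, minus strand) did not follow this order. It stood at 0.923, 0.745, 1.61 and 1.10 FPKM in control 3, 4, 6 and 7. It stood at 0.779, 1.27, 0.838 and 0.887 FPKM in high protein 1, 3, 4 and 5, and at 1.47, 0.999, 0.914 and 1.18 FPKM in lactulose 2, 3, 5 and 6. All 3 diets overlapped, and control 3 was not its lowest library. In mammals EBF1 is also expressed in pericytes, fibroblasts and fat cells. As descriptions over the 12 libraries, its log2 CPM had a Pearson r of −0.61 with the mean of 13 enterocyte markers. It was 0.40 with 8 pericyte and fibroblast markers and 0.0029 with the 6 B cell markers. PAX5, CD79B, POU2AF1 and TNFRSF13C are among those 6, so the last r is not independent of the pairs of members given below. The r with the pericyte and fibroblast markers was higher for CD79B (0.62), JCHAIN (0.45), TNFRSF13C (0.44) and PAX5 (0.42) than for EBF1. The part of pericytes and fibroblasts in the EBF1 values was not tested.

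BCL6 (ID 106044827, scaffold NW_025927753.1, 2545150 to 2554714, plus strand) had the smallest fitted variation within diets of the 9 genes. It stood at 11.5, 14.4, 13.2 and 19.0 FPKM in control 3, 4, 6 and 7. It stood at 10.4, 10.8, 10.8 and 9.35 FPKM in high protein 1, 3, 4 and 5, below all controls. In lactulose 2, 3, 5 and 6 it stood at 11.7, 9.78, 10.9 and 11.4 FPKM, where only lactulose 2 reached above the lowest control. With TMM-scaled CPM, which corrects for the composition of each library, the pattern at the edges changed. Controls spanned 44.0 to 69.5 CPM, high protein libraries 35.7 to 44.1 CPM and lactulose libraries 36.6 to 41.5 CPM, so that lactulose was then the diet without overlap with control. BCL6 is also expressed in follicular helper T cells and in other tissues. Over the 12 libraries its log2 CPM had a Pearson r of −0.69 with 7 smooth muscle markers and −0.72 with 7 endothelium markers, given as descriptions. The r was 0.59 with 8 plasma cell markers (JCHAIN among them), 0.58 with 10 dividing cell markers and −0.11 with 6 B cell markers. Most of those 6 are members, so the last r is not independent of the pairs of members. With the remaining marker lists it ran from −0.33 to 0.25. The summed smooth muscle markers spanned 2218 to 4360 FPKM in controls, 2832 to 5124 FPKM under high protein and 2386 to 6765 FPKM under lactulose. All 7 smooth muscle markers were above 0 in both comparisons with control, against 46.2% of all genes with high protein and 50.1% with lactulose. All 10 dividing cell markers were below 0 in both, against 53.8 and 49.9% of all genes. The part of these cell types in the BCL6 values was not tested.

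CD79B (ID 106046926, scaffold NW_025927843.1, 758666 to 763619, plus strand), the signalling chain of the antigen receptor, stood at 0.761, 3.00, 2.68 and 4.11 FPKM in control 3, 4, 6 and 7. It stood at 1.27, 2.31, 2.02 and 2.13 FPKM in high protein 1, 3, 4 and 5. In lactulose 2, 3, 5 and 6 it stood at 4.77, 3.17, 3.05 and 2.83 FPKM. Every lactulose library was above every high protein library, also with TMM-scaled CPM (4.90 to 7.57 against 2.43 to 4.05). The controls overlapped both diets, at 1.83 to 7.38 CPM, and lactulose 2 stood above all of them on both scales.

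The ligand TNFSF13B (ID 106044892, scaffold NW_025927793.1, 1369414 to 1388220, plus strand) stood at 3.99, 5.91, 7.11 and 6.33 FPKM in control 3, 4, 6 and 7. It stood at 3.57, 6.47, 4.83 and 5.50 FPKM in high protein 1, 3, 4 and 5, and at 4.55, 3.56, 3.62 and 3.57 FPKM in lactulose 2, 3, 5 and 6. Lactulose 3, 5 and 6 lay below all controls, and lactulose 2 lay above control 3. With TMM-scaled CPM no lactulose library reached a control: they spanned 12.2 to 14.3 CPM, and controls 18.7 to 23.0 CPM.

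Its receptors did not share this pattern. TNFRSF13B (ID 106032180, scaffold NW_025927663.1, 13598330 to 13605764, minus strand) stood at 0.467, 1.86, 1.10 and 0.960 FPKM in control 3, 4, 6 and 7. It stood at 0.439, 0.981, 1.09 and 0.916 FPKM in high protein 1, 3, 4 and 5, and at 1.29, 0.960, 0.909 and 0.828 FPKM in lactulose 2, 3, 5 and 6. The diets overlapped, with control 4 as the highest library. TNFRSF13C (ID 106046292, scaffold NW_025927770.1, 756413 to 763047, plus strand) stood at 0.0104, 0.101, 0.169 and 0.112 FPKM in control 3, 4, 6 and 7. It stood at 0.0673, 0.171, 0.0613 and 0.0829 FPKM in high protein 1, 3, 4 and 5, and at 0.120, 0.243, 0.204 and 0.0298 FPKM in lactulose 2, 3, 5 and 6. As with PAX5, lactulose 3 and 5 were highest and control 3 and lactulose 6 lowest. The ligand stood above both receptors in each library. TNFRSF13C rested on 4 counts in control 3, which may be about 1 read pair.

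JCHAIN (ID 106043963, scaffold NW_025927806.1, 2257985 to 2265111, plus strand) stood at 102, 205, 230.4 and 244 FPKM in control 3, 4, 6 and 7. It stood at 136, 232, 149.8 and 102 FPKM in high protein 1, 3, 4 and 5, and at 243, 163, 157 and 149 FPKM in lactulose 2, 3, 5 and 6. Each diet held a library at 232 FPKM or more, and the diets overlapped. JCHAIN was set beside antibody chain genes, which were chosen after their values were seen, by the descriptions in the deposited table. Constant and light chains share sequence with close copies, so their levels are uncertain.

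The table describes LOC106049914 (scaffold NW_025928220.1, 55653 to 60275) as the immunoglobulin alpha heavy chain constant region. It stood at 149.6, 177, 328 and 315 FPKM in control 3, 4, 6 and 7, at 350.0, 123, 237 and 85.6 FPKM in high protein 1, 3, 4 and 5, and at 386, 196, 166 and 259 FPKM in lactulose 2, 3, 5 and 6. High protein 1 was its second highest library although JCHAIN was low there, and high protein 3 was low although JCHAIN was high. The mu constant region LOC106049913 (same scaffold, 35382 to 41361) stood at 27.7 to 102 FPKM in controls. High protein libraries spanned 39.5 to 161 FPKM and lactulose libraries 65.9 to 121 FPKM. LOC106049915 (same scaffold, 75405 to 78614) is described as a predicted Ig mu heavy chain disease protein-like gene, and its antibody class was not tested. It stood at 29.5 to 103 FPKM in controls. It spanned 10.1 to 57.9 FPKM under high protein and 21.3 to 98.3 FPKM under lactulose. The light chain gene IGLL1 stood at 137 to 203 FPKM in controls, 77.7 to 204 FPKM under high protein and 129 to 226 FPKM under lactulose. As descriptions over 12 libraries, Pearson r with JCHAIN was 0.80 for IGLL1, 0.76 for LOC106049915, 0.63 for LOC106049913 and 0.38 for LOC106049914. PAX5 had an r of 0.69 with the mu gene LOC106049913 and of 0.07 with the alpha gene LOC106049914.

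**Figure D2:**
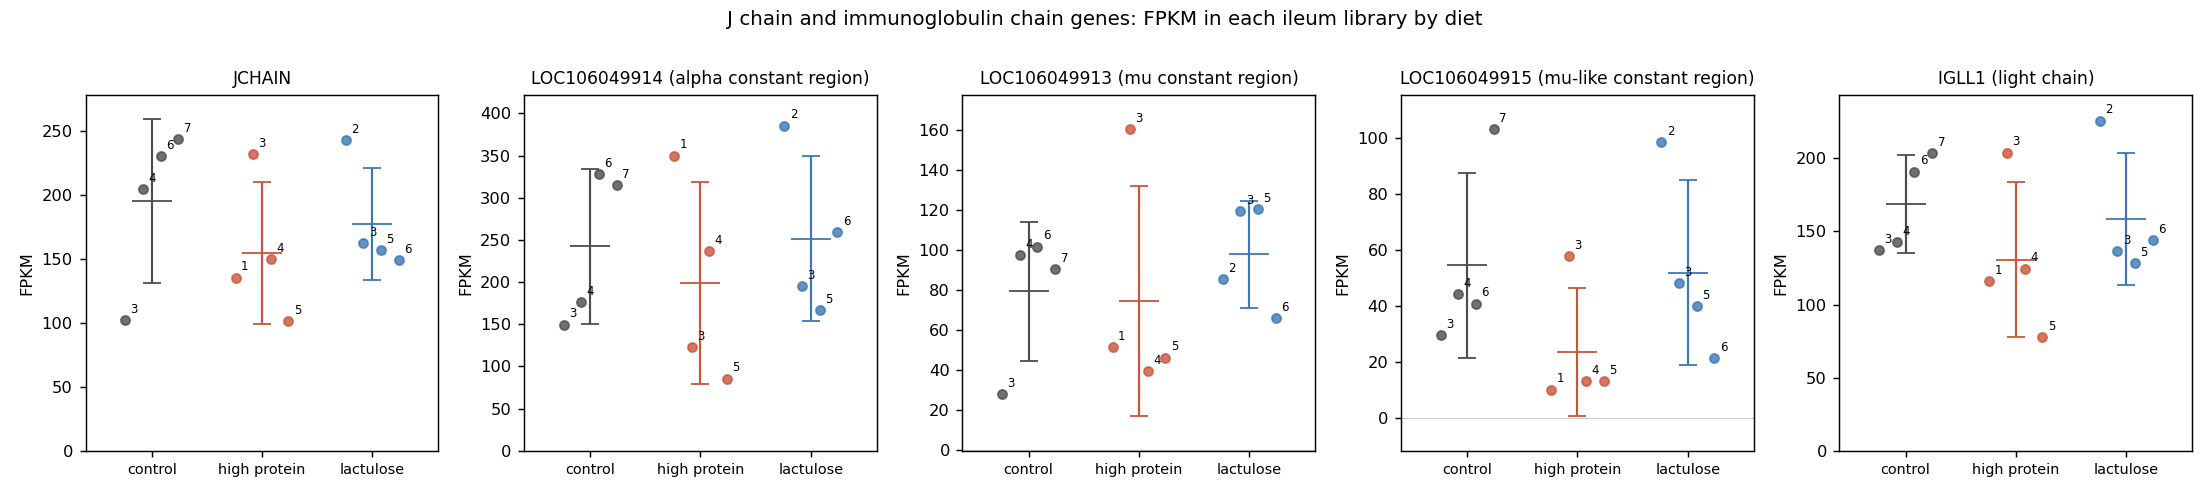
FPKM (vertical axis, from 0) of JCHAIN and 4 immunoglobulin chain genes in each library of the 3 diets. The panel named mu-like is LOC106049915, whose antibody class was not tested. Points are libraries with their replicate number, bars are means and whiskers SDs; the alpha constant region is high in high protein 1 (350.0 FPKM) and low in high protein 3 (123 FPKM), where JCHAIN stands at 136 and 232 FPKM.

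The genes fell into steadier and more variable ones. The biological coefficient of variation within diets was fitted by edgeR beyond counting noise, with each count taken as 1 read pair. If a read pair stands for about 4 counts, the coefficient still holds some counting noise, most where counts are small. It was 1.18 for PAX5, 0.650 for TNFRSF13C and 0.482 for POU2AF1, higher than in 98.0, 91.3 and 83.3% of the genes tested. TNFRSF13B (0.370) and CD79B (0.367) lay at the 71.0 and 70.6 percentiles. EBF1 (0.254), JCHAIN (0.253), TNFSF13B (0.196) and BCL6 (0.165) lay at the 45.2, 44.96, 25.3 and 12.3 percentiles. The most variable genes were also those of lowest level, apart from POU2AF1, whose mean of 2.14 log2 CPM was close to the 2.17 of CD79B.

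By library, control 3 held the lowest FPKM of 4 of the 9 genes, PAX5, CD79B, POU2AF1 and TNFRSF13C. Control 7 was above the median of every one of the 9 genes and high protein 1 above the median of none. Lactulose 2 was above the median for 8 genes, control 6 for 8, and lactulose 6 for 3. The summed enterocyte markers were 5055 FPKM in control 3 and 5718 FPKM in high protein 1, against 1447 to 3419 FPKM in the other controls and 1357 to 3768 FPKM in the other high protein libraries. They also reached 5781 and 6032 FPKM in lactulose 3 and 5, the libraries of highest PAX5. FABP6 made up much of these sums, with 3013 FPKM in control 3 and 827 FPKM in control 7. On the mean log2 CPM of the same markers, which weighs each gene equally, control 3 and control 7 were close, at 9.35 and 9.18. Control 3 was still the highest control, with 8.65 and 7.05 in control 4 and 6. High protein 1 stood at 9.36, against 7.10, 8.84 and 8.90 in high protein 3, 4 and 5. Lactulose 3 and 5 were higher than both, at 9.71 and 9.80. With the enterocyte level as an added term in the fit, 0 of the 9 genes were called. PAX5 then had a log2 fold change of 3.20 with lactulose against high protein. BCL6 had −0.49 with high protein, and TNFSF13B −0.67 with lactulose against control. An added term over 12 libraries cannot decide the part of enterocytes in these values, which was not tested further.

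**Figure D3:**
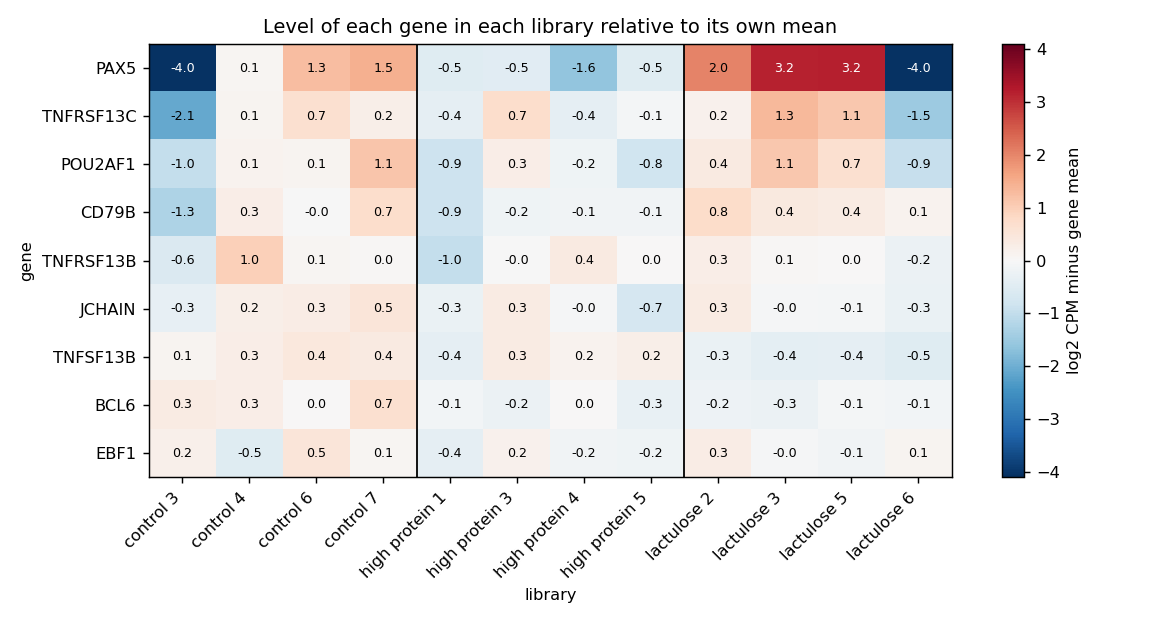
Each cell gives log2 CPM minus the mean of that gene over the 12 libraries (colour and number), with genes in rows, libraries in columns and lines between the diets. The PAX5, TNFRSF13C and POU2AF1 rows are low in control 3 and lactulose 6 and high in lactulose 3 and 5, while BCL6 and TNFSF13B are above their means or at them in all 4 controls.

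Across libraries, 4 of 36 pairs of genes varied together by a two-sided permutation test of Pearson r with Benjamini-Hochberg adjustment over the pairs. PAX5 and TNFRSF13C had r = 0.92 (p = 4e-05, adjusted p = 0.00144; Spearman's rho 0.87, p = 0.00043, adjusted p = 0.00624; permutation tests, n = 12). PAX5 and POU2AF1 had r = 0.83 (p = 0.00084, adjusted p = 0.0150; rho 0.89, p = 0.00023, adjusted p = 0.00624; permutation tests). POU2AF1 and TNFRSF13C had r = 0.80 (p = 0.00125, adjusted p = 0.0150; rho 0.87, p = 0.00052, adjusted p = 0.00624; permutation tests). CD79B and POU2AF1 had r = 0.75 (p = 0.00368, adjusted p = 0.0331; rho 0.78, p = 0.00418, adjusted p = 0.0376; permutation tests). These 4 genes act within B cells, as BCL6, EBF1 and TNFRSF13B also do, and why the pairs varied together was not tested.

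Without the 2 libraries farthest from the median of the first gene, the same pairs had r of 0.79, 0.74, 0.71 and 0.63, and 0 of 36 pairs passed (adjusted p = 0.275 to 0.281 for the 4, permutation test, n = 10). The r stayed positive while the calls were lost, and the cause was not tested. On deviations from the diet means r was 0.94, 0.83, 0.86 and 0.71, and again 0 pairs passed (adjusted p = 0.0860 to 0.107, permutation within diets). BCL6 and EBF1 were in no passing pair: their r with PAX5 was −0.14 and −0.02. TNFSF13B had r of 0.05 with its receptor TNFRSF13C (adjusted p = 0.965) and of 0.37 with TNFRSF13B (adjusted p = 0.538, permutation tests over the 36 pairs). On deviations from the diet means these r were 0.49 (adjusted p = 0.1602) and 0.66 (adjusted p = 0.177, permutation within diets).

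**Figure D4:**
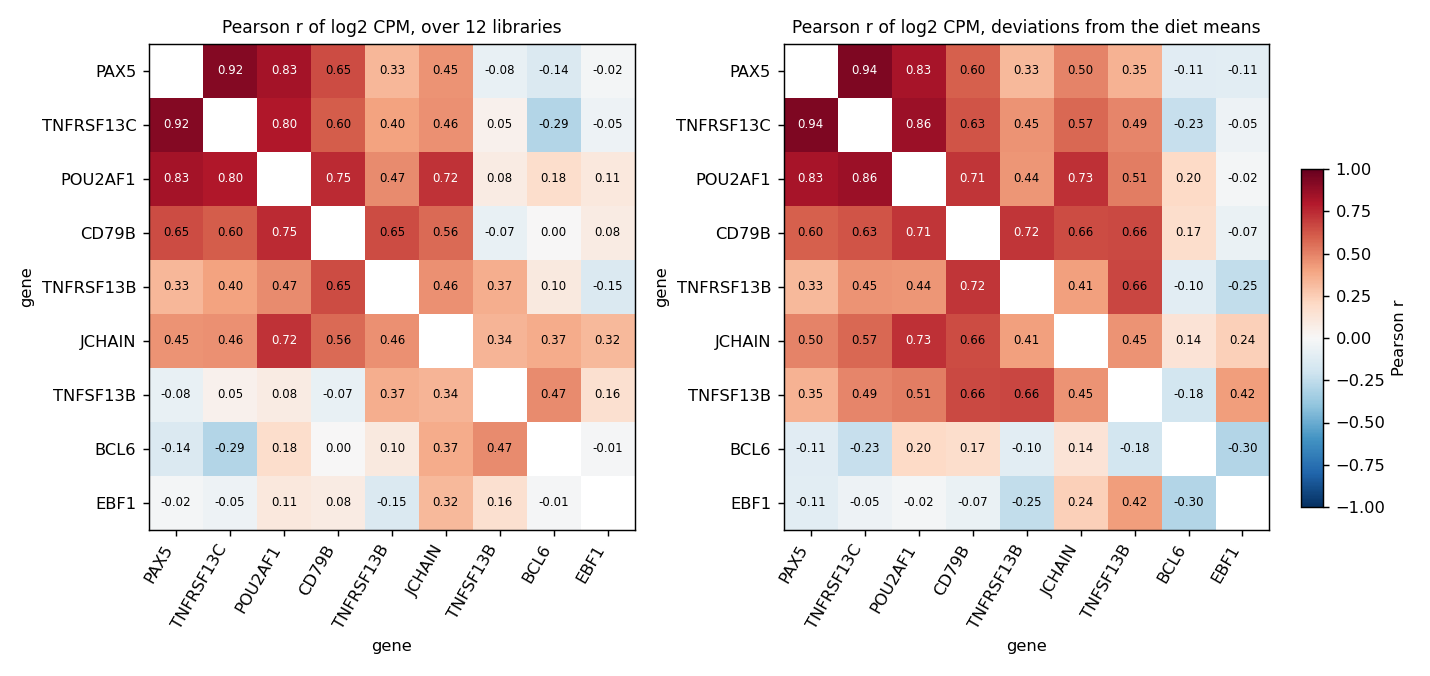
Pearson r between every pair of the 9 genes (colour and number), left over the 12 libraries and right after subtracting diet means. The block of PAX5, TNFRSF13C, POU2AF1 and CD79B holds r of 0.60 to 0.92 on the left, and BCL6 and EBF1 have r of −0.29 to 0.18 with these genes there.

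High protein was first compared with the basal diet. With high protein, 8 of the 9 genes had a fitted log2 fold change below 0, where 53.8% of all genes did and 46.2% were above 0, and the median was −0.32 against −0.02 for all 16075 genes tested. None passed: edgeR's quasi-likelihood test called 0 of the 9 genes and 0% of all genes at an adjusted p under 0.05, and DESeq2 called 0 of the 9 and 0.0498% of all genes. At an unadjusted p under 0.05 it was 1 of 9 lower and 0 higher, against 1.86 and 1.31% of all genes, or 3.17% in either direction. The 1 gene was BCL6. Its mean was 14.5 ± 3.20 FPKM on the basal diet and 10.3 ± 0.694 FPKM on high protein (SD; 4 libraries per diet, here and below). The fitted difference was −0.50 ± 0.14 on the log2 scale (± SE throughout), with an adjusted p of 0.9997 by edgeR. It was also the only one of the 9 whose FPKM did not overlap between the diets, which held for 0.958% of all genes in this direction and 0.485% in the other. By TMM-scaled CPM 0 of the 9 stood apart, against 1.09% of all genes lower and 0.771% higher.

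The other genes had fitted differences with errors that ran from 0.16 for TNFSF13B to 1.205 for PAX5. PAX5 stood at 0.0734 ± 0.0283 against 0.215 ± 0.178 FPKM (log2 fold change −1.43 ± 1.205), and POU2AF1 at 0.906 ± 0.414 against 1.42 ± 0.872 FPKM (−0.61 ± 0.48). CD79B had −0.40 ± 0.35, JCHAIN −0.32 ± 0.24, TNFRSF13B −0.31 ± 0.35, EBF1 −0.23 ± 0.22 and TNFSF13B −0.19 ± 0.16 on the log2 scale. TNFRSF13C, at 0.02 ± 0.69, was the 1 gene above 0. The adjusted p by edgeR was 0.9997 for each of the 9. Without control 3 the value of TNFRSF13C was −0.32, and without control 4 that of TNFRSF13B was 0.05.

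Lactulose was then compared with the high protein diet without it. The fitted log2 fold change was above 0 for 7 of the 9 genes, where 52.8% of all genes were and 47.2% were below 0, with a median of 0.18 against 0.02 for all genes. The high protein libraries are shared with the first comparison, so that the opposite signs in these comparisons are not independent. EdgeR called 0 of 9 and 0% of all genes, and DESeq2 0 of 9 and 0.112% of all genes. At an unadjusted p under 0.05, 1 gene was higher and 1 lower, against 2.31 and 3.33% of all genes, or 5.65% in either direction. The higher one was PAX5, at 0.760 ± 0.574 against 0.0734 ± 0.0283 FPKM, with a log2 fold change of 3.29 ± 1.26 (edgeR adjusted p = 0.845). The lower one was TNFSF13B, at 3.83 ± 0.484 against 5.09 ± 1.22 FPKM (−0.50 ± 0.16; edgeR adjusted p = 0.845).

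CD79B stood at 3.46 ± 0.887 FPKM with lactulose and 1.93 ± 0.456 FPKM with high protein (log2 fold change 0.74 ± 0.35; edgeR adjusted p = 0.845). Its diets did not overlap, as for 4.71% of all genes in that direction by FPKM and 2.43% by TMM-scaled CPM. In the other direction 1.79 and 3.71% of all genes stood apart, and 0 of the 9. POU2AF1 had 0.80 ± 0.48 and TNFRSF13C 0.60 ± 0.69. EBF1, TNFRSF13B and JCHAIN had 0.18 ± 0.22, 0.12 ± 0.35 and 0.12 ± 0.24, and BCL6 −0.01 ± 0.14. The edgeR adjusted p of these 6 genes ranged from 0.870 to 0.998. Since lactulose 3 and 5 differ little, the fit was repeated with both as 1 library: PAX5 then had a log2 fold change of 2.95 (adjusted p = 1 by edgeR; 0.64 to 3.71 over all alternatives, the lowest by limma on log2(FPKM + 1), which understates low genes) and CD79B one of 0.75 (adjusted p = 1 by edgeR).

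The third comparison set lactulose against the basal diet, so that protein and lactulose both differ. The signs were split, 4 of 9 above 0 where 50.1% of all genes were and 49.9% were below 0, with a median of −0.04 against 0.00 for all genes. EdgeR called 0 of 9 and 0% of all genes. DESeq2 called 1 of 9, TNFSF13B, and 0.137% of all genes. At an unadjusted p under 0.05, 2 genes were lower and 0 higher, against 3.94 and 2.26% of all genes, or 6.2% in either direction. TNFSF13B stood at 3.83 ± 0.484 with lactulose against 5.83 ± 1.32 FPKM in controls, with a log2 fold change of −0.69 ± 0.16 (edgeR adjusted p = 0.771; DESeq2 adjusted p = 0.0439). By edgeR p it ranked 17 of the 16075 genes. Over the alternatives its adjusted p ranged from 0.0439 to 0.943. As descriptions over the 12 libraries, TNFSF13B had a Pearson r of 0.58 with plasma cell markers (JCHAIN among them), 0.50 with T cell markers and 0.48 with lymphoid stroma markers. With the remaining marker lists it ran from −0.33 to 0.30. All 11 T cell markers were below 0 in this comparison, where 49.9% of all genes were. The part of these cell types in the TNFSF13B values was not tested.

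BCL6 was the other lower gene, at 10.96 ± 0.847 against 14.5 ± 3.20 FPKM (−0.51 ± 0.14; edgeR adjusted p = 0.771; DESeq2 adjusted p = 0.186). These 2 genes were the ones whose TMM-scaled CPM did not overlap between the diets, as for 2.12% of all genes in that direction and 1.6% in the other. By FPKM 0 of the 9 stood apart, against 1.15% of all genes lower and 2.06% higher. PAX5 had a log2 fold change of 1.86 ± 1.17, TNFRSF13C 0.63 ± 0.69, CD79B 0.34 ± 0.35 and POU2AF1 0.18 ± 0.48. JCHAIN had −0.21 ± 0.24, TNFRSF13B −0.20 ± 0.35 and EBF1 −0.04 ± 0.22. The edgeR adjusted p of these 7 ranged from 0.798 to 0.983. The controls are shared with the first comparison, so BCL6 standing lower in both rests on the same 4 control libraries.

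**Figure D5:**
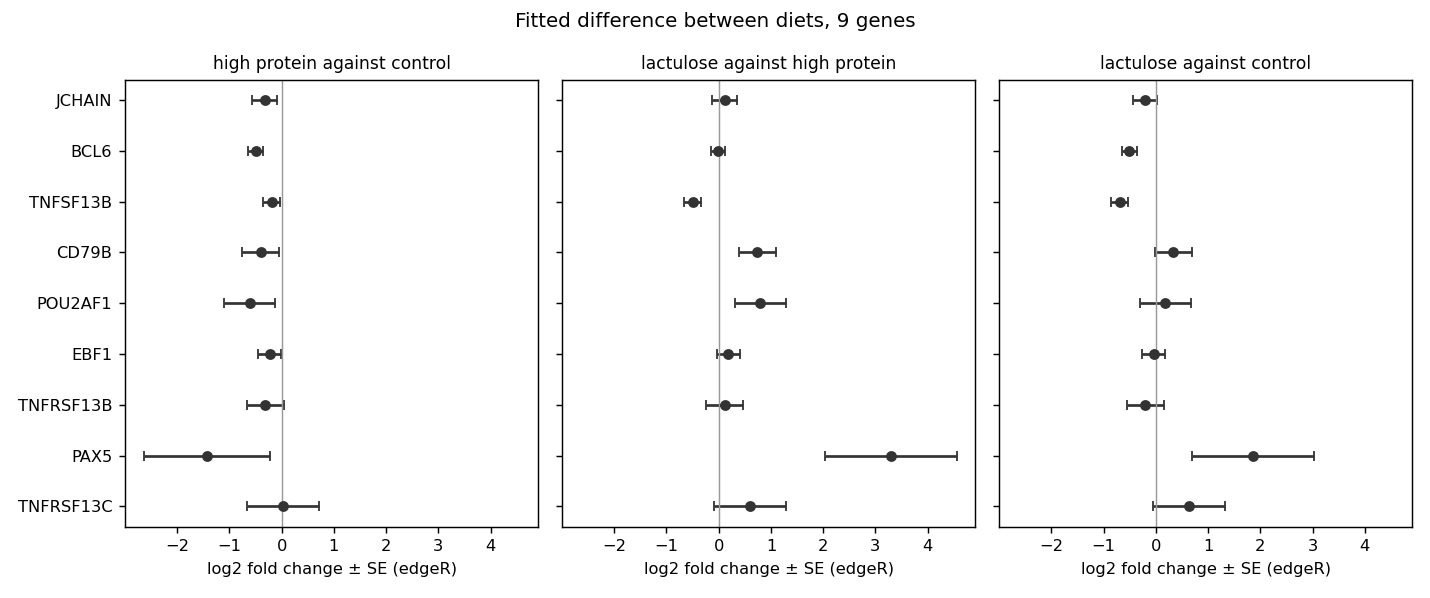
Fitted log2 fold change (horizontal axis, points) with its standard error (whiskers) for the 9 genes in the 3 comparisons, from edgeR on all 12 libraries. BCL6 lies near −0.50 in both comparisons with control, TNFSF13B lies at −0.50 and −0.69 in both lactulose comparisons, and PAX5 has the widest error in each panel.

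The genes that work with these 9 were read from lists that hold non-members of the same pathways, and edgeR called 0 of them in any comparison. Of 16 tested partners in antigen receptor signalling, 13 were above 0 with high protein (median 0.16), where 46.2% of all genes were. With lactulose against high protein 13 were below 0 (median −0.18), where 47.2% of all genes were. Both signs are the opposite of those of CD79B. The high protein libraries are shared by these comparisons, so the opposite signs are not independent. PRKCB, the kinase downstream of the receptor in B cells and also present in other leukocytes, had log2 fold changes of 0.29 ± 0.17 and −0.48 ± 0.17. SYK had 0.31 ± 0.18 with high protein, and LYN had −0.40 ± 0.18 with lactulose against high protein. BCL10, which links the receptor to NF-kB, had −0.32 ± 0.14 with lactulose against control. Macrophage markers, which share SYK, LYN and PRKCB expression in mammals, summed to 277 to 373 FPKM in controls, 369 to 449 FPKM with high protein and 258 to 374 FPKM with lactulose, with 7 of 8 markers above 0 with high protein and 7 of 8 below 0 with lactulose against high protein. Their part in these values was not tested.

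Among 10 other lineage factors, 7 were above 0 with high protein and 5 with lactulose against high protein, against 46.2 and 52.8% of all genes. SPI1, a factor of myeloid and B cells, had 0.24 ± 0.12 with high protein, −0.34 ± 0.12 with lactulose against control and −0.58 ± 0.12 with lactulose against high protein, where DESeq2 called it (adjusted p = 0.00809) and edgeR did not (adjusted p = 0.699). FOXO1 had −0.17 ± 0.13 with high protein, and the lymphoid factor IKZF1 had −0.26 ± 0.20 and −0.30 ± 0.20 with lactulose against high protein and control.

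Of 21 other germinal centre genes, 12 were below 0 with high protein and 13 in each lactulose comparison. Of all genes, 53.8% were below 0 with high protein, 47.2% with lactulose against high protein and 49.9% with lactulose against control. CXCR5, the receptor that draws B cells into follicles, stood at 0.0972, 0.441, 0.941 and 0.941 FPKM in control 3, 4, 6 and 7. It stood at 0.225, 0.288, 0.349 and 0.393 FPKM in high protein 1, 3, 4 and 5, and at 0.529, 1.24, 0.880 and 0.241 FPKM in lactulose 2, 3, 5 and 6. Control 3 and lactulose 6, where PAX5 was at 0, were the low libraries of their diets. The helper T cell genes CD40LG and ICOS (LOC106030066, matched by its identifier) had −0.73 ± 0.24 and −0.56 ± 0.22 with lactulose against high protein, and −0.77 ± 0.24 and −0.47 ± 0.22 against control. T cell markers, all 11 of which were below 0 in both lactulose comparisons, summed to 221 to 416 FPKM in controls, 227 to 388 FPKM with high protein and 198 to 261 FPKM with lactulose, and their part in these values was not tested.

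Of 7 other genes of the BAFF receptors and the alternative NF-kB pathway, 5 were below 0 with high protein and 5 with lactulose against control. The shares of all genes were 53.8 and 49.9%. TNFRSF17, the receptor of this family on plasma cells, stood at 0.407, 0.396, 0.576 and 0.562 FPKM in control 3, 4, 6 and 7. It stood at 0.1599, 0.753, 0.449 and 0.279 FPKM in high protein 1, 3, 4 and 5, and at 0.213, 0.107, 0.168 and 0.122 FPKM in lactulose 2, 3, 5 and 6. All lactulose libraries were below all controls by FPKM, as for 1.15% of all genes in that direction and 2.06% in the other. TNFRSF17 is a gene of low level and was named by its small p within its list. Its log2 fold change was −1.75 ± 0.44 with lactulose against control (edgeR adjusted p = 0.771, DESeq2 adjusted p = 0.0691) and −1.48 ± 0.43 against high protein (edgeR adjusted p = 0.845). Among the signalling genes, MAP3K14 and TRAF3 had −0.15 ± 0.14 and −0.22 ± 0.23 with high protein. CHUK had −0.09 ± 0.09 with lactulose against high protein, and MAP3K14 −0.24 ± 0.14 with lactulose against control.

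Of 19 other genes of plasma cells and antibody secretion, 12 were below 0 with high protein, 11 with lactulose against high protein and 12 with lactulose against control. The shares of all genes were 53.8, 47.2 and 49.9%. PIGR (LOC106041362 in the deposited table, matched by its identifier), the epithelial receptor that carries JCHAIN-bound antibody into the lumen, stood at 116, 145, 235 and 289 FPKM in control 3, 4, 6 and 7. It stood at 136, 119, 48.5 and 76.4 FPKM in high protein 1, 3, 4 and 5, and at 269, 119, 111 and 116 FPKM in lactulose 2, 3, 5 and 6. High protein 4 and 5 were below all other libraries, and lactulose 2 was high for PIGR as for JCHAIN. The log2 fold change of PIGR with high protein was −1.04 ± 0.35 (edgeR adjusted p = 0.9997). TXNDC5 had 0.29 ± 0.21 with high protein, and IRF4, a factor of plasma cells that T cells also use, had −0.57 ± 0.23 with lactulose against control and −0.48 ± 0.23 against high protein.

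The genes most like a member over the 12 libraries, by Pearson r of log2 CPM among 9997 named genes with a mean of at least 1 FPKM, are a description. For CD79B they were JADE3 (r = 0.91), PDIA4 (0.90) and XPO7 (0.90). For JCHAIN they were NRDE2 (0.94), NEDD1 (0.90) and ATXN7L1 (0.89). For BCL6 they were ISX (0.90), an intestinal homeobox factor at 8.65 to 33.4 FPKM, STK38L (0.88) and PIK3C2B (0.87). For TNFRSF13B they were TCF7 (0.87) and CCR7 (0.85), both known from naive lymphocytes, and UNC13B (0.85). The highest r among 9997 genes over 12 libraries can be high by chance, and this was not tested.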

How the data were processed

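Poly(A) RNA of the ileum was measured in 12 libraries, 4 per diet. The authors deposited 1 table with a count and an FPKM value per gene and library, per the file headers. Tools listed without a role, per the submitters' processing notes, were StringTie 2.1.6, HISAT2 2.2.1, cutadapt 1.9, edgeR and DESeq2. Build, annotation and strand setting: not given in the sources used here; coordinates are those of the deposited table. A count of 4 was the most frequent small count (5063 times, against 1799 for 3 and 1526 for 5), so 1 read pair may stand for about 4 counts, and dividing counts by 4 was an alternative.

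Counts were tested with edgeR 4.0.16 in R 4.3.3 (TMM scaling, quasi-likelihood test, all 12 libraries in 1 fit, diet as the only term, Benjamini-Hochberg adjustment over the 16075 of 19836 genes left by filterByExpr with a minimum count of 10). All 9 genes passed that filter. A standard error is the log2 fold change divided by the root of the F statistic. DESeq2 1.42.0 and limma 3.58.1 were alternatives. The log2 CPM used for correlations has a prior count of 2, and permutation tests drew 100000 resamples. The fits were tested on simulated data. The other alternatives were the scaling, the filter, the pseudocount on FPKM, the 2 diets alone, the replicate number as a block, each library left out, lactulose 3 and 5 as 1 library, and the enterocyte level as a term.

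All 9 genes are named. Of each pathway list, the non-members with the 2 smallest unadjusted edgeR p in each comparison are named. Some genes that this rule or the marker lists name are not reported here. For CD79B, JCHAIN, BCL6 and TNFRSF13B, the 3 named genes of highest r are given. The members and lists were chosen with earlier results of these data known. Of 171 list entries, 150 were found, 10 of them by identifier.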

Additional observations from a re-analysis of the deposited data

Results flagged for a closer look

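In 27 groups of 4 libraries, 1 for each gene and diet, the library at either end was set against its nearest neighbour, and 2 groups had a library far from the other 3. Chance flags about 5% of such groups. TNFSF13B stood at 4.55 FPKM in lactulose 2, above 3.56 to 3.62 FPKM in the other lactulose libraries. JCHAIN stood at 243 FPKM in lactulose 2, above 149 to 163 FPKM in the others. Both differences are in FPKM. In TMM-scaled CPM lactulose 2 was nearer to the others, at 14.3 against 12.2 to 13.3 for TNFSF13B and at 437 against 291 to 338 for JCHAIN, and neither would then stand apart by this measure. Both groups hold lactulose 3 and 5, which differ little from each other. Lactulose 2 also had the lowest summed enterocyte markers of its diet (1400.2 FPKM, against 2622 to 6032 FPKM) and the highest summed smooth muscle markers (6765 FPKM, against 2386 to 5302 FPKM). Their part in these values was not tested.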

How the results depend on the processing

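The number of the 9 genes called stayed at 0 in each comparison under every alternative run but 1: DESeq2 called 1 gene, TNFSF13B, with lactulose against control, and the cause was not tested. Of 36 pairs of genes, 4 passed over the 12 libraries, 0 on deviations from the diet means and 0 without the 2 libraries farthest from the median, where the cause was not tested. With lactulose 3 and 5 as 1 library, chosen after seeing the data, 4 passed, of which 3 were among the first 4: CD79B with POU2AF1 did not pass (adjusted p = 0.0514) and POU2AF1 with JCHAIN did (adjusted p = 0.0377, permutation tests). By Spearman 3 passed.

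Of 594 single fold changes under an alternative, 27 changed sign, all of genes that were not called. With high protein against control, TNFRSF13C had −0.0022 by limma on log2(FPKM + 1) and −0.020 with counts divided by 4. With lactulose against high protein, BCL6 had 0.075 and 0.081 by limma with a pseudocount of 1 and 0.1. With lactulose against control, EBF1 had 0.041 and 0.084 by limma with the same pseudocounts, and 0.0049 with lactulose 3 and 5 as 1 library.

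Leaving out each library in turn gave these ranges where a sign changed. With high protein against control they were −0.51 to 0.046 for TNFRSF13B and −0.32 to 0.35 for TNFRSF13C. With lactulose against high protein they were −0.052 to 0.051 for BCL6, −0.10 to 0.30 for TNFRSF13B and −0.036 to 0.31 for JCHAIN. With lactulose against control they were −0.11 to 0.63 for POU2AF1, −0.20 to 0.12 for EBF1 and −0.40 to 0.16 for TNFRSF13B.

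No pairing of samples by replicate number was seen: over 6 same-numbered pairs the correlation of deviations from the diet means ran from −0.13 to 0.20. Other pairs across diets ran from −0.40 (control 6 and lactulose 5) to 0.47 (control 6 and lactulose 2). The 6 values therefore cannot decide whether samples were paired. With the replicate block 0 of the 9 genes were called in each comparison. Under the block CD79B had 0.15, EBF1 0.041 and TNFRSF13C −0.14 with high protein against control, and BCL6 0.11 and EBF1 −0.22 with lactulose against high protein.

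PAX5 and TNFRSF13C had small counts (0 to 308 and 4 to 71) and also a wide spread between libraries, with fitted coefficients of variation of 1.18 and 0.650. These take each count as 1 read pair, and hold some counting noise if a read pair stands for about 4 counts.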
